A study of Mus musculus with 10 samples.

Results

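The genes described here are 10 interferon-linked genes of mouse: Parp9, Parp10, Parp12, Parp14 and Dtx3l of the ADP-ribosylation machinery, the Schlafen genes Slfn2, Slfn5, Slfn8 and Slfn9, and Samd9l. They were named as a list, with earlier results of these data known. All 10 were matched by symbol among the 56748 Ensembl identifiers of the count tables. Expression was measured by RNA-seq in beta cells that had been sorted by flow cytometry from dispersed pancreatic islets of NOD males, which were 6 to 8 weeks of age. NOD mice are an inbred strain prone to spontaneous autoimmune diabetes, and no engineered allele is given. The sorting gate is not stated. Untreated libraries (n = 5, numbered 1 to 5) were compared with libraries from islets cultured for 48 hours with 50 ng/ml lipopolysaccharide (LPS, n = 5, numbered 6 to 10). Whether the untreated islets were cultured for the same time is not stated, and if they were not, culture and LPS cannot be told apart. LPS, which animal cells detect by Toll-like receptor 4, was given to intact islets, so that the sorted cells had been in contact with the other islet cells. The libraries are stated to be independent samples, but the animals behind each are not named, so the p-values measure only the spread between these samples.

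PARP proteins use NAD to attach ADP-ribose to target proteins or nucleic acids. PARP10, PARP12 and PARP14 attach single ADP-ribose units, and PARP9 forms a complex with the ubiquitin ligase DTX3L. PARP9 and PARP14 also carry macrodomains, modules that bind ADP-ribose. Schlafen proteins are a family that is expanded in mouse and best known from lymphocytes and myeloid cells, and several members bind or cut transfer RNA. SAMD9L is a cytosolic antiviral protein that restricts poxviruses and lowers protein synthesis. The transcripts of these genes are known to rise after interferon in many cell types.

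Totals assigned to genes ran from 18465188 to 27379892 reads per library. Beta cell markers dominated, with a summed level of 10 markers between 118123 and 136907 CPM (reads scaled by TMM to a common library size) in untreated and between 101845 and 133893 CPM in LPS libraries. Hormone transcripts of other islet cells were present, with Gcg at 8921 ± 3389 CPM and Sst at 7060 ± 824 CPM in untreated libraries (SD, n = 5). The summed level of 15 macrophage markers was 29.3 to 42.3 CPM in untreated and 36.5 to 47.1 CPM in LPS libraries, with Ptprc at 0 throughout. That of 12 lymphocyte markers was 3.34 to 4.94 and 3.17 to 4.51 CPM, with Cd3e, Cd3d, Cd3g, Ms4a1 and Nkg7 at 0. The summed level of 8 endothelial markers was 1.20 to 25.9 CPM in untreated and 1.32 to 4.70 CPM in LPS libraries. Of the markers abundant enough to be tested, 3 of 10 beta cell genes and 1 of 5 endothelial genes were called lower. Called higher was 1 of the 2 macrophage genes tested, Cd68 (16.7 ± 2.78 to 26.8 ± 4.77 CPM, SD, n = 5). The other, C1qa, was at 18.7 ± 3.69 and 14.7 ± 1.85 CPM and was not called. Of 5 ductal genes tested, 1 was called higher, Spp1 (46.3 ± 10.5 to 91.0 ± 21.4 CPM, SD, n = 5). The summed level of 6 ductal markers was 485 to 618 CPM in untreated and 558 to 705 CPM in LPS libraries. Apart from fits with the macrophage or endothelial mean as a covariate, the part of these cell types in the members' changes was not tested.

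All 5 genes of the ADP-ribosylation group and Samd9l rose with LPS, and none of the Schlafen genes was called. Calls required an adjusted p under 0.05 in edgeR's quasi-likelihood test, with Benjamini-Hochberg adjustment over the 15942 genes that passed a filter on low counts. Thus 6 of the 10 genes were called higher, 1 (Slfn9) was tested and not called, and 3 (Slfn2, Slfn5 and Slfn8) were too low to be tested. Over all genes tested, 2.84% were called higher, 0.928% lower and 3.77% in either direction. In DESeq2 the same 6 members were called higher, where 3.58% of all genes were. The median log2 fold change was 0.54 over the 7 tested members and -0.01 over all genes tested. Because the members were chosen with earlier results of these data known, these contrasts with all genes are a description and no test. In bulk RNA, more cells of a type and more RNA per cell cannot be told apart. The increases were modest, between 1.31-fold and 1.48-fold. Of the 453 genes called higher, 269 had a larger fold change than Parp9, the largest of the called members, and 100 had a smaller one than Dtx3l, the smallest.

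Parp9 (ENSMUSG00000022906) stood at 18.1, 17.8, 19.3, 17.6 and 15.1 CPM in untreated 1 to 5 and at 27.2, 26.8, 24.6, 28.0 and 24.0 CPM in LPS 6 to 10. Every LPS library lay above every untreated library. The log2 fold change was 0.57 (SE 0.08, adjusted p = 0.00107 in edgeR). Dtx3l (ENSMUSG00000049502), the gene of the ligase partner, stood at 22.7, 23.6, 23.8, 21.5 and 20.3 CPM in untreated 1 to 5 and at 31.5, 32.2, 27.4, 29.7 and 25.2 CPM in LPS 6 to 10. The groups did not overlap, but LPS 10 was only slightly above the highest untreated library, untreated 3. The log2 fold change of Dtx3l was 0.38 (SE 0.08, adjusted p = 0.0188 in edgeR), and its call was lost without untreated 4 (adjusted p = 0.0556), LPS 7 (0.0634) or LPS 9 (0.0553). The log2 fold changes without them were 0.37, 0.34 and 0.38. Parp9 and Dtx3l lie head to head on opposite strands of chromosome 16 and overlap at their starts in the RefSeq gene models. Whether counting used the strand is not given in the sources used here, so reads in the overlap may have been dropped or misassigned.

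Parp14 (ENSMUSG00000034422), whose product is a large enzyme with macrodomains, also lies on chromosome 16. It was at 33.2, 38.2, 38.8, 36.2 and 34.0 CPM in untreated 1 to 5 and at 51.5, 57.9, 50.5, 54.0 and 50.1 CPM in LPS 6 to 10. The groups were well apart, the lowest LPS library (LPS 10) being above the highest untreated one (untreated 3) by more than the SD of either group, which was 2.48 CPM in untreated and 3.24 CPM in LPS. The log2 fold change was 0.55 (SE 0.07, adjusted p = 3.32e-04 in edgeR).

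Parp10 (ENSMUSG00000063268), on chromosome 15, encodes an enzyme with ubiquitin interaction motifs. It was at 43.2, 44.9, 47.5, 44.4 and 51.7 CPM in untreated 1 to 5 and at 59.4, 57.6, 59.5, 65.8 and 66.0 CPM in LPS 6 to 10. Its log2 fold change was 0.41 (SE 0.07, adjusted p = 0.00315 in edgeR). Untreated 5 was the highest of its group and still below all LPS libraries. Parp12 (ENSMUSG00000038507), on chromosome 6, encodes a PARP with zinc fingers that bind RNA. It had the least spread of the members, with 37.4, 38.5, 39.2, 39.1 and 39.7 CPM in untreated 1 to 5 and 49.6, 51.1, 51.7, 51.3 and 49.5 CPM in LPS 6 to 10. Its log2 fold change was 0.39 (SE 0.05, adjusted p = 6.51e-04 in edgeR), and the groups did not overlap.

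Samd9l (ENSMUSG00000047735), also on chromosome 6, was at 42.8, 46.0, 46.5, 50.2 and 44.3 CPM in untreated 1 to 5 and at 62.5, 69.6, 63.6, 71.2 and 67.6 CPM in LPS 6 to 10. Again all LPS libraries lay above all untreated ones. The log2 fold change was 0.54 (SE 0.06, adjusted p = 2.10e-04 in edgeR). The groups were thus separated in this direction for all 6 called members, and for 3.84% of all genes tested. The reverse separation, seen in 1.87% of all genes tested, was seen in no member.

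**Figure D1:**
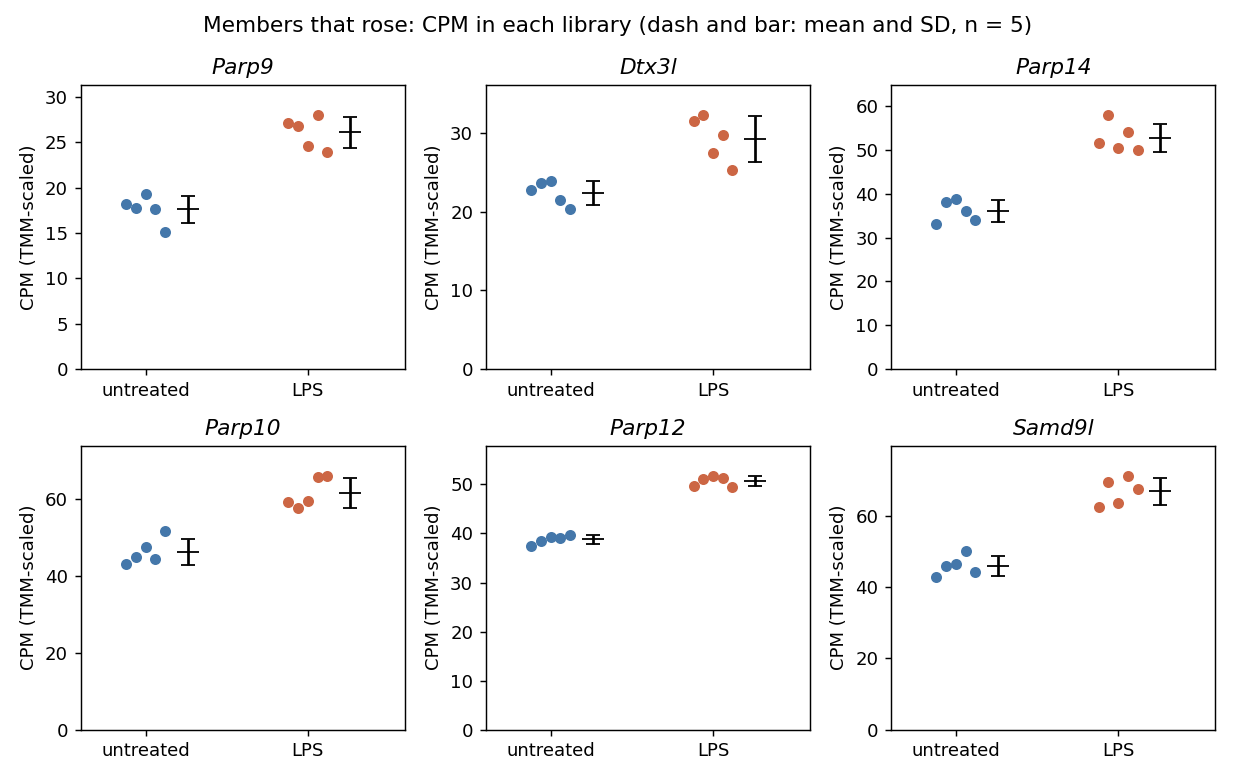
Level in CPM (vertical axes, starting at 0) of the 6 called members in the 5 untreated and 5 LPS libraries, 1 point per library, with the mean and SD beside the points. In each panel all LPS points lie above all untreated points, by the narrowest margin for Dtx3l.

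Some library properties moved with treatment. The share of reads in ENSMUSG00000119584, an abundant gene without a symbol in the tables used, was 0.366 to 0.942% in untreated and 0.227 to 0.427% in LPS libraries. With this share as a covariate in edgeR, 3 members (Parp12, Parp14 and Samd9l) were called higher, at adjusted p = 0.0453, 0.0262 and 0.00596. Parp9 (adjusted p = 0.0583), Parp10 (0.193) and Dtx3l (0.319) were not, at log2 fold changes of 0.56, 0.34 and 0.36. The groups nearly separate on that share, and the share of all genes called higher fell to 0.997% in that fit. Untreated 3 was the untreated library with the lowest share (0.366%). It had the highest untreated levels of Parp9 (19.3 CPM), Parp14 (38.8 CPM) and Dtx3l (23.8 CPM), each below all LPS libraries. The other called members peaked elsewhere, Parp10 (51.7 CPM) and Parp12 (39.7 CPM) in untreated 5. Samd9l (50.2 CPM) peaked in untreated 4, which had the highest share (0.942%). A link between the share and these levels within the untreated group was not tested. With the mean of the endothelial markers as a covariate, 4 members were called, and 1.0% of all genes were called higher. Parp10 (log2 fold change 0.43, adjusted p = 0.0613) and Dtx3l (0.42, 0.146) were not called in that edgeR fit, where their fold changes were no smaller and their SE was larger (0.10 and 0.11). Untreated 1 had the lowest summed endothelial level of all libraries, 1.20 CPM, and had 18.1 CPM of Parp9, 43.2 CPM of Parp10 and 22.7 CPM of Dtx3l. This is 1 library, and the other untreated libraries all lay above all LPS libraries in endothelial level. Endothelial content and LPS can therefore not be told apart here, and its part in the members' changes was not tested further. With the macrophage marker mean as a covariate the same 6 members were called, beside 2.52% of all genes called higher. Only 2 of those 15 markers passed the filter on low counts, Cd68 and C1qa, with log2 fold changes of 0.68 and -0.35. Such a mean is a weak measure of macrophage content, so that this fit cannot decide its part.

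The fitted increases of the members were not all of the same size. To compare their changes, the ratio of 2 genes was taken within each library, which does not depend on the scaling, and tested by a two-sided exact permutation test with Benjamini-Hochberg adjustment over 69 pairs. The smallest p this design allows is 0.00794. These pairs were set up after the fold changes had been seen. Of the 69 pairs, 48 set a called PARP member against another PARP gene that was not called, and 37 of these passed. Their small p-values lower the adjusted p of the 21 pairs among members, which were not adjusted on their own. The adjusted p-values below can therefore not decide whether members differ. The ratio of Dtx3l to Parp9 was 1.25, 1.33, 1.24, 1.22 and 1.35 in untreated 1 to 5 and 1.16, 1.20, 1.11, 1.06 and 1.05 in LPS 6 to 10. All LPS ratios were below all untreated ratios, so that in these counts Parp9 gained more than Dtx3l. The difference in log2 ratio was -0.19 ± 0.05 SE (exact p = 0.00794, adjusted p = 0.0156 over the 69 pairs). With each library left out the differences ran from -0.22 to -0.17, with an exact adjusted p under 0.05 over the same pairs. The 2 genes overlap and the use of strand in counting is not known. Reads dropped or misassigned there may shift this ratio, which was not tested. Dtx3l also rose less than Parp14 (-0.17 ± 0.06 SE), and Parp12 less than Parp14 (-0.17 ± 0.05) and than Samd9l (-0.16 ± 0.05), each with an exact adjusted p of 0.0401. Those 3 differences each fell short of the threshold in 9 of the 10 tests with 1 library left out. No difference was detected between Parp14 and Parp9 (-0.02 ± 0.06 SE, exact adjusted p = 0.791), Parp14 and Samd9l (0.01 ± 0.05, 0.910) or Dtx3l and Parp12 (0.00 ± 0.08, 0.960).

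**Figure D2:**
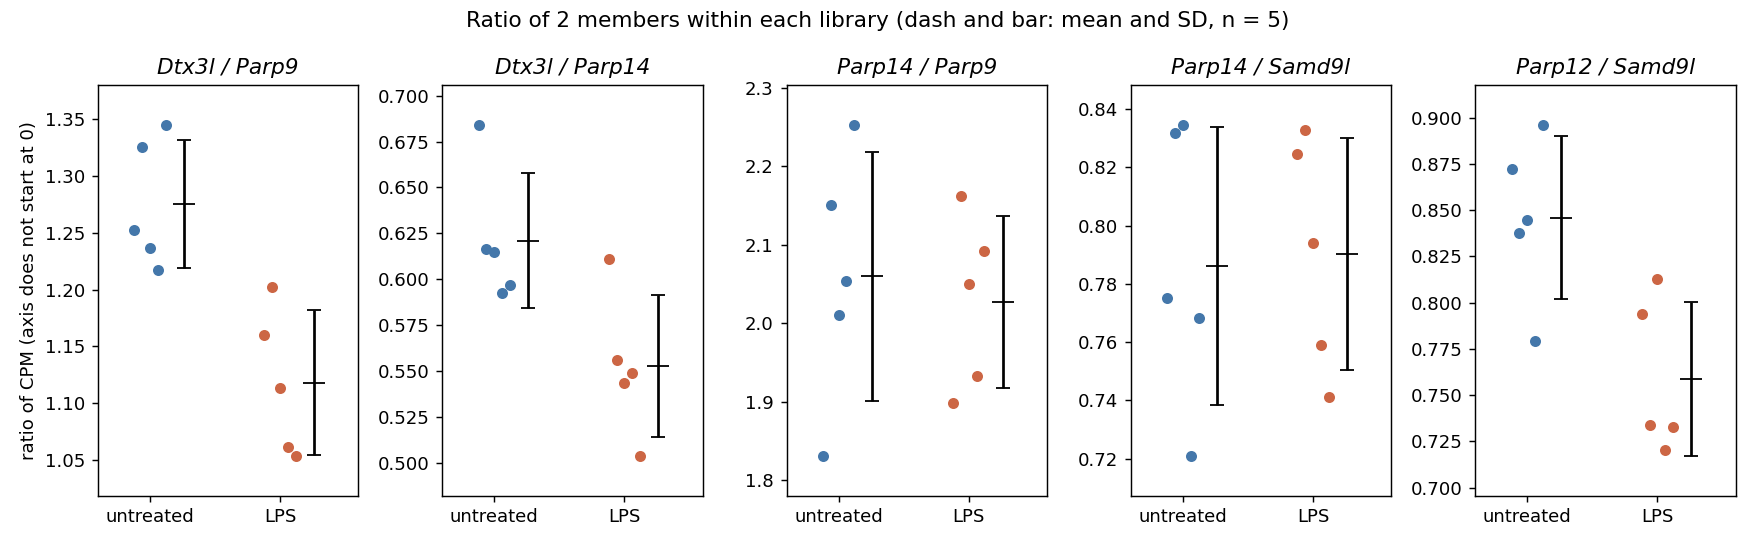
Ratio of the CPM of 2 members (vertical axes, not starting at 0) within each untreated and LPS library, 1 point per library, with the mean and SD beside the points. The ratio of Dtx3l to Parp9 runs from 1.22 to 1.35 in untreated and from 1.05 to 1.20 in LPS libraries, while those of Parp14 to Parp9 and of Parp14 to Samd9l overlap between groups.

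Likeness of profile was measured as the root mean square distance between log2 levels in the 10 libraries, each gene centred on its own untreated mean, among 12198 protein-coding genes with a mean of at least 1 CPM. The gene nearest to Parp14 was Slc11a2, an iron transporter gene, at a distance of 0.05 on the log2 scale. Samd9l (0.07) and Parp9 (0.09) came next. Parp14 was in turn the nearest gene to Samd9l, ahead of Creld2 (0.09) and Scnn1b (0.09), and the second after Tnfrsf1a (0.08) to Parp9. Dtx3l was not among the nearest 3 of Parp9 and ranked at 35. The nearest genes to Dtx3l were Plxnb2 (0.07), Pdia4 (0.08) and Edem1 (0.08), to Parp10 Ninj1 (0.06), Prkcsh (0.08) and Rab5if (0.08), and to Parp12 H13 (0.05), Prkcsh (0.06) and Mogs (0.07). Slfn9 had no gene as near, the closest being Pfkp (0.16), Rbp3 (0.17) and Rbm20 (0.19). It had only 22 to 48 reads per library, where counting error adds to such a distance, and the part of that error was not tested. All of these distances rest on the same 10 libraries.

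Per kilobase of annotated exon, Parp10 was the most abundant member in untreated libraries, at 10.8 ± 0.790 CPM per kilobase (SD, n = 5). Parp12 (9.71 ± 0.225) and Samd9l (8.47 ± 0.513) followed, each below the one before it in all 5 libraries. Dtx3l (3.91 ± 0.259), Parp14 (3.88 ± 0.266) and Parp9 (3.61 ± 0.315) formed a lower group with overlapping ranges. Slfn9 was at 0.177 ± 0.0154, and Slfn2 (0.0511), Slfn8 (0.0379) and Slfn5 (0.0344) were lower still and overlapped. In LPS libraries Parp10 (14.4 ± 0.925) again came first, Parp12 (12.7 ± 0.249) and Samd9l (12.3 ± 0.693) overlapped, and Parp14 (5.68 ± 0.349), Parp9 (5.36 ± 0.352) and Dtx3l (5.10 ± 0.505) overlapped.

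The Schlafen genes were scarcely detected in these cells. All 4 lie on chromosome 11. Slfn9 (ENSMUSG00000069793), which encodes a long Schlafen protein with a helicase-like part, was the most abundant, at 30, 25, 27, 24 and 23 reads in untreated 1 to 5 and 33, 41, 35, 48 and 22 reads in LPS 6 to 10. Of the LPS libraries 4 were above all untreated ones in reads, and LPS 10 was below them. In CPM this was 1.06 ± 0.0921 and 1.65 ± 0.599 (SD, n = 5), a log2 fold change of 0.62 ± 0.26 (SE) that did not pass (edgeR adjusted p = 0.265; 0.261 in DESeq2). Its size was similar to that of Parp9, but its error was larger, and no difference from the 6 called members was detected (exact adjusted p of at least 0.585). Slfn8 (ENSMUSG00000035208), which shares stretches of sequence with Slfn9, had 5, 0, 6, 0 and 8 reads in untreated 1 to 5 and 6, 5, 6, 4 and 9 reads in LPS 6 to 10, with overlapping groups.

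Slfn2 (ENSMUSG00000072620) encodes a short Schlafen protein that is needed for the quiescence of T cells. It had 0, 0, 3, 6 and 1 reads in untreated 1 to 5 and 5, 14, 2, 1 and 14 reads in LPS 6 to 10, so that LPS 7 and LPS 10 held most of its reads and the groups overlapped. Slfn5 (ENSMUSG00000054404), another long member, had 0, 5, 7, 8 and 6 reads in untreated 1 to 5 and 2, 8, 1, 2 and 0 reads in LPS 6 to 10. Its summed reads went the other way, 26 in untreated and 13 in LPS, with overlapping groups. Without the filter on low counts, edgeR gave adjusted p = 0.415 for Slfn2, 0.616 for Slfn8 and 0.595 for Slfn5. The SE of their log2 fold changes in that fit was 0.80, 0.70 and 0.79, so that a change as large as that of Parp9 was not detectable in them at this depth.

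Of the 7 other Schlafen genes listed, none passed the filter. Slfn3, Slfn4 and the antisense gene Slfn5os had 0 reads in every library. Such a count leaves room for 0.0246 CPM in the summed untreated and 0.0269 CPM in the summed LPS libraries (3 reads in the sum of a group, counting error only). Slfn1 had 1 read and Slfn14 had 2 reads in all, and Slfnl1 had 21 in untreated and 22 in LPS libraries. The pseudogene Slfn10-ps had 2, 1, 1, 8 and 4 reads in untreated 1 to 5 and 20, 13, 11, 3 and 14 reads in LPS 6 to 10. Its groups overlapped through untreated 4 and LPS 9. It was tested and called higher in DESeq2 (log2 fold change 2.04, adjusted p = 0.0435) and in edgeR without untreated 4 (adjusted p = 0.0314), but not in edgeR without the filter (adjusted p = 0.0886).

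**Figure D3:**
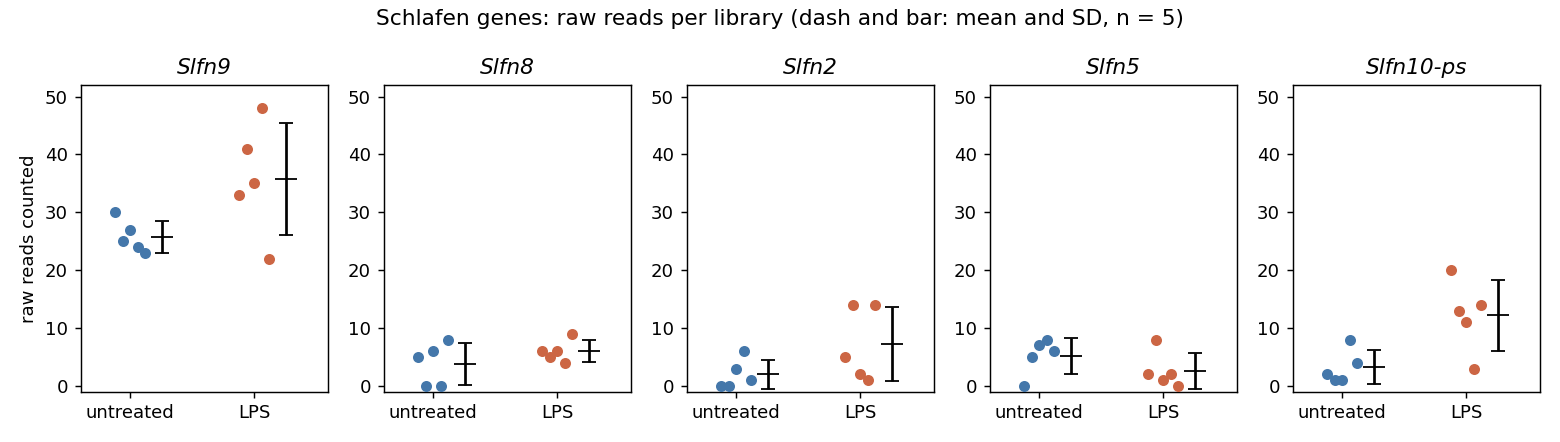
Raw reads per library (vertical axes, the same range in all panels) for the 4 Schlafen members and the pseudogene Slfn10-ps, 1 point per library, with the mean and SD beside the points. Slfn9 reaches 48 reads in LPS 9, Slfn8, Slfn2 and Slfn5 stay at 14 reads or fewer, and all groups overlap.

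These low counts are also uncertain because the genes resemble each other. Of the distinct stretches of 50 bases in the annotated transcripts of Slfn8, 9.30% also occur in Slfn9 and 10.1% in Slfn10-ps. For Slfn9, 6.52% occur in Slfn8 and 8.10% in Slfn10-ps. Reads from such stretches may have been dropped as not unique or given to the wrong copy. Summed over Slfn8 and Slfn9, the level was 1.21 ± 0.180 CPM in untreated and 1.92 ± 0.555 CPM in LPS libraries (SD, n = 5), with LPS 10 inside the untreated range. Parp9 and Parp12 shared no such stretch with another gene, and Samd9l 0.428%, Parp14 0.667%, Dtx3l 1.20% and Parp10 3.59%.

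The windows around the starts of Slfn8 and Slfn9 also resemble each other and are shown because both carry the same match to the interferon-stimulated response element (ISRE), the site bound by ISGF3 and other IRF factors. The windows run from 250 bases before to 50 bases after the annotated start, 5′ to 3′ on the gene's strand, from RefSeq on GRCm38.p6, chr11:83020761-83021060 (minus strand) for Slfn8 and chr11:82991781-82992080 (minus strand) for Slfn9. Capitals mark the match to the ISRE core.
Slfn8: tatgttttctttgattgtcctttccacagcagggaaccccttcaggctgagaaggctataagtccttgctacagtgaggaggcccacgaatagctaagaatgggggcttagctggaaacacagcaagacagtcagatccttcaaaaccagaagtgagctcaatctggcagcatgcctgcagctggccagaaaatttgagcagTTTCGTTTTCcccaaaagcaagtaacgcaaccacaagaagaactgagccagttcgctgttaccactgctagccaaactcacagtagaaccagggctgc
Slfn9: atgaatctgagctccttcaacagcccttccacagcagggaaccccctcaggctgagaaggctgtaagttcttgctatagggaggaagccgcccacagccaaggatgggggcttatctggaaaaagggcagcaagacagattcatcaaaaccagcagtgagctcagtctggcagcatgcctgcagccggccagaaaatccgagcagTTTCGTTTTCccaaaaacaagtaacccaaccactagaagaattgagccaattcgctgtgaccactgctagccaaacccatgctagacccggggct
Aligned end to end, the windows were identical at 252 of 312 columns, or 80.8%. The ISRE core was searched on both strands as GAAA, 2 bases of any kind and GAAA. Both windows hold it on the opposite strand, from -48 to -39 in Slfn8 and from -45 to -36 in Slfn9, counted from the start site. Of all 32851 windows in the table, 3.44% hold this core. Slfn5 also has a match in its window, GAAAAAGAAA, inside a run rich in A. A second, overlapping window of Slfn8 holds the same site as the first. Windows were found for 7 of the 10 members, not for Parp9, Parp10 and Parp14.

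Among members that rose, the windows of Dtx3l, Parp12 and Samd9l hold no ISRE core as spelled here. They are a description of these 300 bases and say nothing of sites elsewhere. Samd9l has a pair of GAAA repeats with a gap of 3 bases of any kind, from 32 to 42 bases after its start, a spelling found in 2.75% of all windows. The windows of Samd9l (chr6:3399522-3399821, minus strand) and of Dtx3l (chr16:35938978-35939277, minus strand), both on GRCm38.p6, are shown to contrast with those of Slfn8 and Slfn9. Capitals mark the repeat pair in Samd9l.
Samd9l: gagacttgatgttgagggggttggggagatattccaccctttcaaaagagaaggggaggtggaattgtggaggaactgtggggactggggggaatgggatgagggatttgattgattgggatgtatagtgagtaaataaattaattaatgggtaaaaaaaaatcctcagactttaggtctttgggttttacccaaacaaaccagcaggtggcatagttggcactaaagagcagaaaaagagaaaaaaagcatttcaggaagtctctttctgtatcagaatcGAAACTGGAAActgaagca
Dtx3l: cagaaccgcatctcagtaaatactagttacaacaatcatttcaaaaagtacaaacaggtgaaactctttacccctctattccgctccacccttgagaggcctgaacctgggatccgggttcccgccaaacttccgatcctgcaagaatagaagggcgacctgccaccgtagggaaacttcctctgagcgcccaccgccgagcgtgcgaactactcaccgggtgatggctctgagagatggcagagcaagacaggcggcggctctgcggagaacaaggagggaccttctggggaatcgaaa
No window of a member held the gamma-activated site spelled TTCNNNGAA, which is present in 8.3% of all windows. The window of Slfn2, a member with few reads, holds no match of any of these spellings either. No binding was measured.

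The other genes of the PARP family were set beside the members. None of 12 was called in edgeR, where 3.77% of all genes tested were called in either direction. At that share a count of 0 among 12 genes does not set them apart from other genes. Of the 12, 3 were at an unadjusted p under 0.05 in edgeR, and their median log2 fold change was -0.02. DESeq2 called 2 of them, Parp3 higher (adjusted p = 0.0154) and Parp6 lower (0.0337). The most abundant were the tankyrase genes, whose products build chains of ADP-ribose. Tnks2 was at 239 ± 19.2 CPM in untreated and 219 ± 30.7 CPM in LPS libraries (SD, n = 5) and Tnks at 159 ± 15.3 and 156 ± 26.7 CPM, and neither passed (edgeR adjusted p = 0.615 and 0.960). Chosen after their values were seen, Parp1, the main DNA damage PARP, was at 79.9 ± 3.61 and 80.3 ± 3.86 CPM. Parp3 had the largest fitted change of the family (0.73 ± 0.20 SE, edgeR adjusted p = 0.0703), at 2.28 and 3.78 CPM on average. Zc3hav1, an antiviral RNA-binding relative without enzymatic activity, was at 69.7 ± 5.91 and 80.9 ± 7.50 CPM (0.22 ± 0.08 SE, edgeR adjusted p = 0.188).

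The 4 PARP members were compared with their relatives through ratios within libraries. The 4 members had already been called higher and none of the 12 relatives had, so these ratios give no separate support. The 48 pairs also reuse the same genes in the same 10 libraries. How many of all genes tested the members would outgain in this way was not computed. Of the 48 pairs, 37 passed, all with the larger gain in the member. Parp9 gained more than 11 of the 12 relatives, Parp14 more than 10, Parp12 more than 9 and Parp10 more than 7. Against Parp1 the difference in log2 ratio was 0.57 for Parp9 and 0.54 for Parp14 (exact adjusted p = 0.0156 for both). No difference of a PARP member from Parp3 was detected, with values of -0.37 to -0.18 (exact adjusted p of at least 0.161). None was detected between Parp10 or Parp12 and Zc3hav1 either (0.20 and 0.17, exact adjusted p = 0.243 and 0.151).

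**Figure D4:**
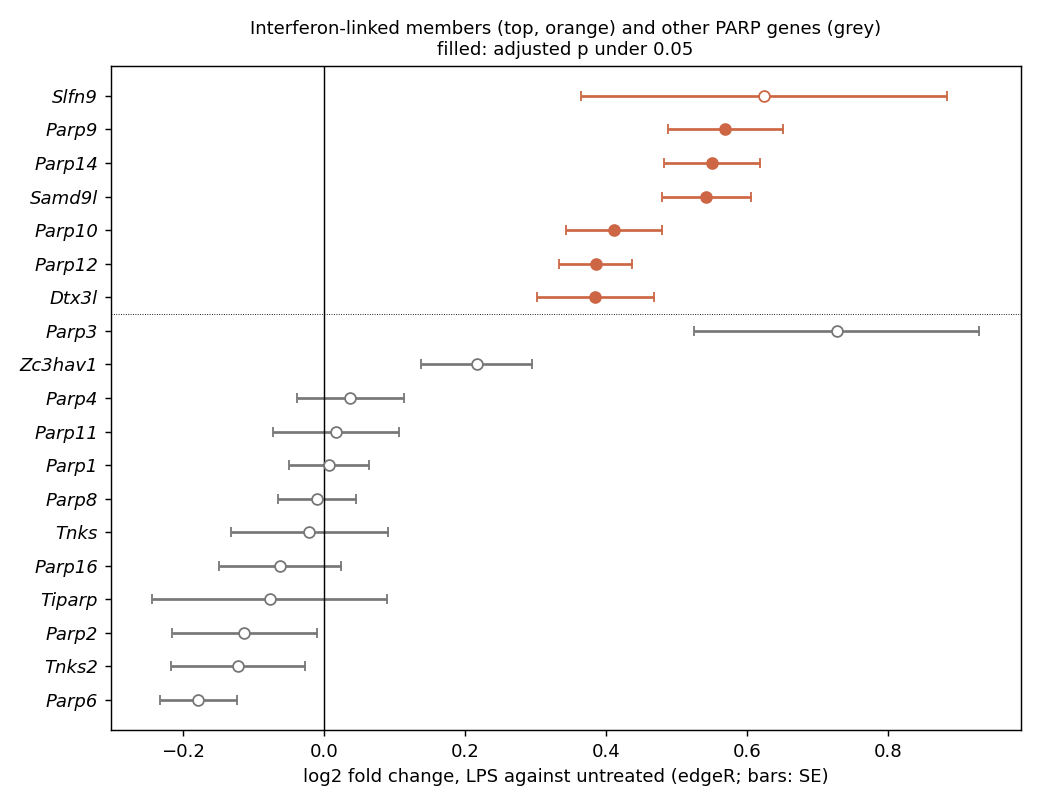
Log2 fold change of LPS against untreated (horizontal axis, bars: SE) for the 7 tested members in orange and 12 other PARP genes in grey, with filled points for genes called in edgeR. The called members lie between 0.38 and 0.57, and among the other PARP genes only Parp3 (0.73) lies above 0.38.

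Few further genes of ADP-ribose biology or of transfer RNA cleavage were called, beside 3.77% of all genes tested in edgeR. In lists this short, counts of 0 or 1 cannot be told from that share. Of 12 tested readers and erasers of ADP-ribose, 1 rose, Macroh2a2, which encodes a macrodomain histone variant (35.9 ± 3.24 to 51.7 ± 1.39 CPM, SD, n = 5; log2 fold change 0.53, edgeR adjusted p = 4.79e-04). None of the other 4 Deltex ligase genes was called (0 at an unadjusted p under 0.05 in edgeR, 0 in DESeq2 and limma-voom), with Dtx3 at 236 ± 34.8 and 246 ± 46.9 CPM and Dtx2 at 22.7 ± 3.59 and 22.8 ± 1.53 CPM. Of 10 tested genes of NAD synthesis and use none was called in edgeR (1 at an unadjusted p under 0.05), DESeq2 or limma-voom. The most abundant were Nadk, at 75.6 ± 4.63 and 79.5 ± 2.73 CPM, and Nampt, the rate-limiting gene of NAD salvage, at 73.5 ± 6.35 and 85.0 ± 11.5 CPM (0.21 ± 0.09 SE, edgeR adjusted p = 0.289). Of 9 genes of transfer RNA cleavage and repair none was called in edgeR, with 3 at an unadjusted p under 0.05. Rtcb was at 134 ± 6.89 and 130.1 ± 3.43 CPM and the ribonuclease inhibitor gene Rnh1 at 111 ± 4.36 and 123 ± 5.82 CPM. Ang, the gene of the transfer RNA-cutting enzyme angiogenin, named after its value was seen, was close to the threshold (0.44 ± 0.12 SE, edgeR adjusted p = 0.0521; 0.0118 in DESeq2).

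Of 15 genes of the interferon signal chain, 7 rose and none fell. They included the transcription factor genes Stat2 (62.5 ± 8.26 to 109 ± 18.7 CPM, SD, n = 5; log2 fold change 0.80, edgeR adjusted p = 0.00179) and Irf9 (0.83). Irf7 (2.01), Irf1 (0.73), the feedback protease gene Usp18 (0.79) and the receptor chains Ifngr2 (1.04) and Ifnar2 (0.47) rose as well. With the share of ENSMUSG00000119584 as a covariate 4 of the 15 were called.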

How the data were processed

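Raw read counts per Ensembl gene were analysed as deposited, 1 table per library. Per the submitters' processing notes, the authors used FastQC, Trimmomatic, STAR, SAMtools, HTSeq and DESeq2 with build GRCm39. Neither the annotation nor any use of strand is given in the sources used here. Rows that name no gene were left out of library sizes (reads outside genes were 8.84 to 12.9% of each table). Symbols came from GENCODE M21 and RefSeq names. Exon lengths are from GENCODE M21 and promoter windows from RefSeq, both on GRCm38, so no coordinates of the counted genes are given.

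Genes were filtered (edgeR 4.0.16 filterByExpr, minimum count 10, minimum total 15), given TMM factors and tested in R 4.3.3 with edgeR's quasi-likelihood F test, with no covariate. The SE is the log2 fold change divided by the root of F. Alternatives were DESeq2 1.42.0, limma 3.58.1 (voom), other scalings and filters, 3 covariates and each library left out. The fits were tested on simulated data. Profile distances used log2 of CPM plus 0.5. The members and lists were chosen with earlier results of these data known. Named were all members, called genes of each list or else its 2 most abundant, and the nearest 3 profiles and neighbours of members. Genes named beyond that are marked, and 1 result is not reported here. Figures used matplotlib 3.10.9.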

Additional observations from a re-analysis of the deposited data

How the results depend on the processing

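Counts of called members were 5 to 6 with single libraries left out and 6 in DESeq2, limma-voom, other scalings and other filters, against 3 with the share of ENSMUSG00000119584 and 4 with the endothelial mean as covariate. Parp12, Parp14 and Samd9l kept their calls in all 20 alternatives, Parp9 in 19, Parp10 in 18 and Dtx3l in 15, and none of these 6 or Slfn9 changed direction. Over all genes, 601 were called, 949 in DESeq2, 172 with the endothelial and 181 with the ENSMUSG00000119584 covariate, and 401 to 624 with single libraries left out. Of the other PARP genes, 2 were called in DESeq2 and 0 to 1 with single libraries left out (Parp3 without untreated 4). Of the other Schlafen genes, 1 was called in DESeq2 and 0 to 1 with single libraries left out. Of the genes of transfer RNA cleavage and repair, 1 (Ang) was called in DESeq2, 1 without the filter and 0 to 1 with single libraries left out. Of the interferon signal chain, 4 were called with the ENSMUSG00000119584 covariate and 6 to 8 with single libraries left out. Pairs that passed the ratio test numbered 41, and 35 to 40 with single libraries left out, where fewer samples raise the smallest p to 0.0159. Causes were not tested. The few reads of Slfn2, Slfn5 and Slfn8 limit any statement on them. No paired analysis was possible because the groups share no replicate number.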

Other observations

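Genes next to the members in the RefSeq gene order were looked up. Of 19 neighbours that are no members, 9 were tested and 1 was called, against 3.77% of all genes tested. That gene was Gm20559, which lies on the same strand as Samd9l directly beyond its end. It was at 11.8, 15.6, 11.6, 14.3 and 13.7 CPM in untreated 1 to 5 and at 21.1, 22.5, 20.3, 25.0 and 27.1 CPM in LPS 6 to 10, with no overlap (log2 fold change 0.79 ± 0.11 SE, edgeR adjusted p = 7.16e-04). Its transcripts hold 0.428% of the 50-base stretches of Samd9l. On the other side of Samd9l, Hepacam2 was at 190 ± 6.32 CPM in untreated and 164 ± 9.10 CPM in LPS libraries (SD, n = 5), lower in all LPS libraries but not called (-0.21 ± 0.06 SE, edgeR adjusted p = 0.0644).

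Gm15564, which overlaps Parp9 on the opposite strand, went the other way. It was at 9.44, 7.37, 5.57, 11.7 and 7.75 CPM in untreated 1 to 5 and at 5.27, 6.07, 2.47, 4.29 and 4.68 CPM in LPS 6 to 10. The groups overlapped through untreated 3 and LPS 7, and the difference did not pass (-0.87 ± 0.23 SE, edgeR adjusted p = 0.0578). The neighbours of the other members that were tested, Kpna1, Plec, Grina, Hspbap1, Gm11425 and 4930599N23Rik, were not called, with log2 fold changes between -0.26 and 0.25.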
